A study of Mus musculus with 4 samples.

Results

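Cd28, Ctla4 and Icos lie side by side on mouse chromosome 1 and encode related receptors through which T cells are costimulated or restrained. The members are these 3 neighbouring genes, of 21888 genes counted, and are listed by name. Chromatin accessibility was counted over each gene span with 5 kb on each side, and in 709 tiles of 500 bp from 50 kb before Cd28 to 50 kb after Icos (chr1:60696001-61050500, build GRCm38.p6, the same as mm10). In the RefSeq gene table Cd28 (gene ID 12487) spans 60746388 to 60773359, Ctla4 (12477) spans 60909025 to 60915832 and Icos (54167) spans 60960773 to 61000322 on chromosome 1. The table holds spans without exons, and tiles are therefore placed relative to whole genes.

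The data came from T cells of mice whose cecum had been injected with AKP organoids, a colorectal tumor line whose engineered changes include Apc-/- and Trp53-/-. At 4 weeks after transplantation T cells were sorted from the tumor and from the adjacent tumor-free cecum of tumor-bearing mice, and their nuclei were profiled by single-cell multiome sequencing, which measures RNA and chromatin accessibility (ATAC) in each nucleus. A single tumor line was used, and the cecum group is tissue next to a tumor and not cecum of untreated mice. There was 1 ATAC library per tissue, and the number of mice pooled is not given in the sources.

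CD28 binds CD80 and CD86 on antigen-presenting cells and gives the second signal that a naive T cell needs beside its antigen receptor. CTLA-4 competes for the same ligands, restrains T cell activation, and is held at high levels by regulatory T (Treg) cells, which depend on it to suppress other T cells. ICOS, induced after activation, binds ICOS ligand and sustains helper and regulatory T cells.

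The cecum library held 66466111 fragments and the tumor library 96747563, and 7155 and 8466 nuclei carried 1 of 17 cell type labels that the authors made from the RNA. Labelled nuclei had median fragment counts of 4374 and 5846, and the medians of the labels ran from 3516 to 8588 in cecum and from 3899 to 9643 in tumor. All values below are fragments per 1000000 fragments of a label (FPM), which removes depth as a scale but not its effect on precision. PD1+ CD4 had 14 cells in the cecum and was not ranked there, which left 16 labels in cecum and 17 in tumor. Of the labelled barcodes, 84 occur in both libraries. As a check of the sort, T cell genes had a median of 4.49 FPM per kb in cecum and 4.32 in tumor, against 0.284 and 0.297 for B cell genes, 0.379 and 0.442 for myeloid genes and 0.504 and 0.536 for epithelial genes. The B cell gene Cd79a was higher, at 6.28 and 6.02 FPM per kb, in a window that overlaps Arhgef1. A single library per tissue allows no test, so p-values are absent. Intervals are exact at 95% and hold counting error alone, without the spread between mice.

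Per kb of window, over all labelled cells, Ctla4 was the most open of the members. Ctla4 had 4.76 FPM per kb (percentile 92.2 of all genes), Cd28 had 3.0 (percentile 83.2) and Icos had 1.77 (percentile 69.9), against a median of 0.683 over all genes. The fragments behind these values were 3785 in cecum and 4705 in tumor for Ctla4, 5121 and 6661 for Cd28, and 4250 and 5045 for Icos.

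Cd28, the costimulator, was open in the CD4 and CD8 labels and almost closed in Cytotoxic gdT and CD8aa cells. Its median over labels was 141 FPM in cecum and 134.0 FPM in tumor. The highest levels were 189.9 FPM in Th2 cells of the cecum (interval 156 to 229) and 178 FPM in newly activated CD4 cells of the tumor (163 to 194). These leads were small, since 5 labels in cecum and 4 in tumor did not differ from the highest beyond counting error. Cytotoxic gdT cells, a γδ T cell label, had the lowest level in both libraries, 11.0 FPM in cecum (7.55 to 15.4, from 33 fragments) and 12.9 FPM in tumor (9.68 to 16.8, from 54 fragments). CD8aa cells were next, at 18.6 FPM (13.3 to 25.3) and 19.9 FPM (15.5 to 25.2). Rorgt gdT cells stood at 60.1 and 52.7 FPM, Innate-like T#1 cells at 74.1 and 68.8 FPM, Innate-like T#2 cells at 129 and 134 FPM, and Cytotoxic CD8 cells at 93.0 and 90.02 FPM. From lowest to highest label Cd28 spanned 17.3-fold in cecum and 13.8-fold in tumor, the widest range of the 3 genes.

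Ctla4, the inhibitory receptor, was led by IL-10+ Treg cells in each library. These cells had 159.6 FPM in cecum and 135 FPM in tumor, while IL-10- Treg cells had 109.6 and 97.3 FPM. In the cecum every other label was separated from IL-10+ Treg cells by more than counting error, whereas in the tumor 3 labels were not. Tfh-like cells had 129.9 and 118 FPM, and Th17 cells had 129 FPM in cecum and 89.3 FPM in tumor. The low end was held by Innate-like T#2 cells in cecum, at 32.1 FPM, and by Innate-like T#1 cells in tumor, at 30.2 FPM. CCR7+ CD4 cells, which carry a marker of naive and recirculating cells, had 47.8 and 39.7 FPM. The range over labels was 4.98-fold and 4.49-fold, with medians of 84.1 and 92.1 FPM. Counted within 1 kb of either gene end alone, this lead was lost to Th17 cells in cecum (56.3 against 51.1 FPM) and to Tfh-like cells in tumor (62.4 against 41.4 FPM). Ctla4 and Icos both belong to a module that the study defined for IL-10+ Treg cells from RNA of these samples, so their place there is not independent evidence.

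Icos was also highest in IL-10+ Treg cells, at 165 FPM in cecum and 163 FPM in tumor. In the cecum 2 labels were not separated from them beyond counting error and in the tumor 1. Newly activated CD4 cells had 149.9 and 107 FPM, Th17 cells 148 and 133 FPM, Mucosal Th1 cells 134 and 136 FPM, and IL-10- Treg cells 128 and 114 FPM. CD8aa cells were lowest in both libraries, at 33.9 and 29.2 FPM. Within 1 kb of either gene end IL-10+ Treg cells led in cecum, at 19.1 FPM, while in tumor Tfh-like cells did (19.6 against 17.2 FPM). The RefSeq span of Icos covers 1 curated and 3 predicted transcripts, so its ends need not be those of the main transcript, which bears on its gene-end counts and its level per kb. The median over labels was 94.95 FPM in cecum and 96.9 FPM in tumor, and the range over labels 4.87-fold and 5.59-fold.

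**Figure D1:**
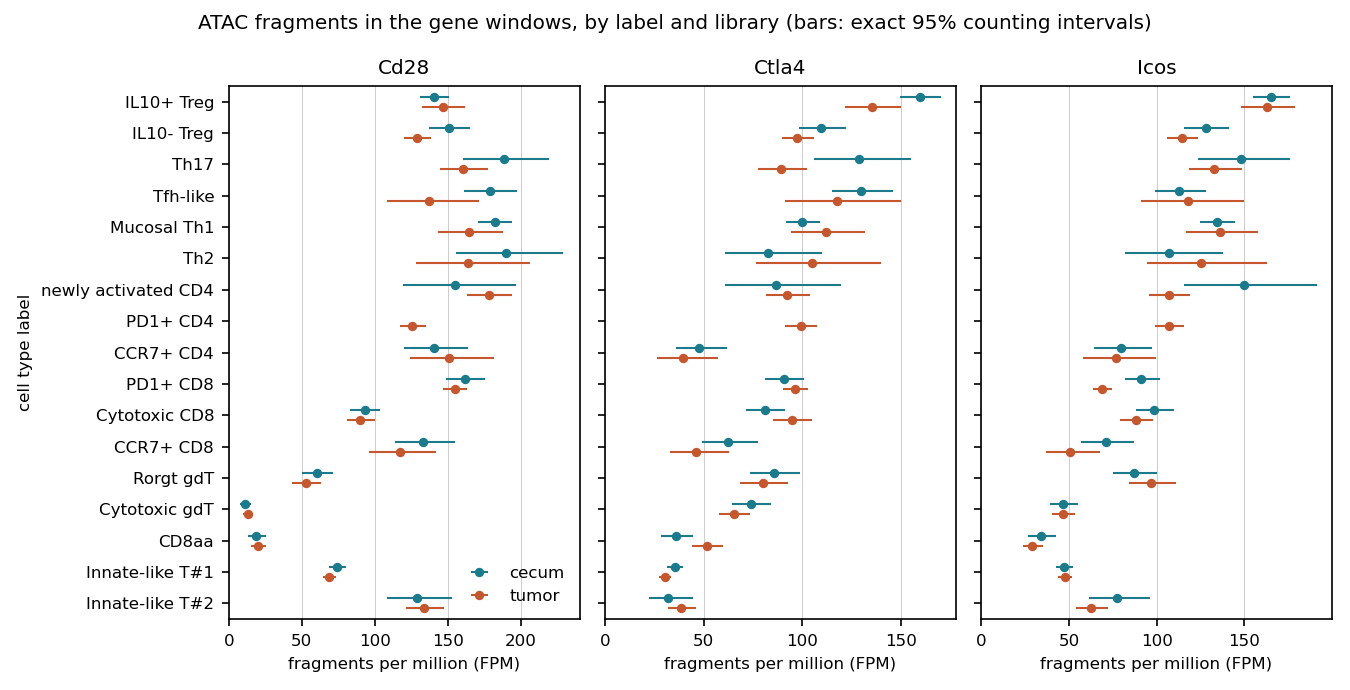
FPM in the window of each gene (x axis) for each cell type label (y axis), in the cecum and tumor libraries. Points are label values and bars are exact 95% counting intervals. Cd28 falls to 11.0 and 12.9 FPM in Cytotoxic gdT cells, and IL-10+ Treg cells lead Ctla4 and Icos in both libraries.

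The order of the labels was much the same in both libraries, while neighbours in the order were mostly not separated. Of 15 neighbouring pairs in cecum and 16 in tumor, 5 and 5 were separated beyond counting error for Cd28, 1 and 3 for Ctla4, and 2 and 2 for Icos. As a description over the 16 labels with enough cells in both, the cecum and tumor levels had a Pearson r of 0.959 for Cd28, 0.898 for Ctla4 and 0.931 for Icos. Between genes, Ctla4 and Icos were the pair most alike, with r of 0.826 in cecum and 0.843 in tumor. Cd28 and Icos had 0.737 and 0.655, and Cd28 and Ctla4 had 0.508 and 0.449. The labels share a library, and their cells differ in depth.

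The Treg subsets were compared because the study asked how IL-10+ and IL-10- Treg cells differ. For Ctla4, at the levels given above, the IL-10+ subset exceeded the IL-10- one by log2 ratios of 0.54 in cecum (0.36 to 0.73) and 0.47 in tumor (0.28 to 0.67), or 1.46-fold and 1.39-fold. For Icos the ratios were 0.37 (0.19 to 0.54) and 0.51 (0.34 to 0.69). In cecum and tumor alike, IL-10+ Treg cells thus exceeded the other subset at Ctla4 and Icos by more than counting error. For Cd28, with 141 against 151 FPM in cecum and 147 against 129 FPM in tumor, the ratios were -0.10 (-0.27 to 0.07) and 0.19 (0.01 to 0.36), opposite in sign. None of the 3 genes passed 1.5-fold. Ctla4 did so, however, after removal of cells with over 3 times the median number of fragments, with log2 ratios of 0.64 in cecum and 0.67 in tumor, and in cecum with 25 kb on each side (0.60) or as the mean over cells (0.68). Among all genes tested 2.53% were higher by 1.5-fold in cecum and 2.05% in tumor, and 8.32% and 8.92% were lower. The ratios of Ctla4 lay at percentiles 97.0 and 96.7 of all genes, and those of Icos at 93.1 and 97.1.

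Against 7 CD4 labels that are not Treg (CCR7+ CD4, newly activated CD4, PD1+ CD4, Mucosal Th1, Th2, Th17 and Tfh-like), both Treg labels pooled had less accessible Cd28 and more accessible Ctla4 and Icos. Cd28 was at 144 FPM in Treg and 176 FPM in other CD4 cells of the cecum, and at 135 and 149 FPM in the tumor, with log2 ratios of -0.29 (-0.39 to -0.19) and -0.14 (-0.25 to -0.04). Ctla4 was at 142 against 101 FPM in cecum and 109.5 against 95.1 FPM in tumor, with ratios of 0.50 (0.38 to 0.62) and 0.20 (0.08 to 0.32). Icos had ratios of 0.30 (0.19 to 0.41) and 0.20 (0.09 to 0.31). All 6 intervals excluded no difference, and the share of all genes whose intervals do so was not counted. Among all genes the ratios lay at percentiles 15.1 and 22.8 for Cd28, 95.2 and 83.9 for Ctla4, and 90.4 and 83.6 for Icos. In neither library did any of the 3 genes pass 1.5-fold. Of all genes 3.69% were higher by that much in cecum and 4.29% in tumor, and 5.89% and 5.12% were lower. Within 1 kb of either gene end Icos passed it at 0.96 and 0.73, and the tumor ratio of Ctla4 was -0.02. With 25 kb on each side Ctla4 passed it in cecum, at 0.77. The IL-10- label alone lay nearer to other CD4 cells than the pool did. At Ctla4 it had 109.6 against 101 FPM in cecum and 97.3 against 95.1 FPM in tumor. At Icos it had 128 against 123.5 FPM and 114 against 113 FPM. The pools also differ in make-up. IL-10+ Treg cells gave 5709704 fragments in cecum and 2727884 in tumor, and IL-10- Treg cells 3000774 and 5805456. PD1+ CD4 had 14 cells in cecum and 616 in tumor.

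Between the 7 CD4 labels and 3 CD8 labels (CCR7+ CD8, Cytotoxic CD8 and PD1+ CD8), Icos was higher in CD4 cells, with log2 ratios of 0.44 in cecum and 0.63 in tumor (0.52 to 0.75, 1.55-fold). This tumor value was the only 1 of the 6 past 1.5-fold. Cd28 had ratios of 0.45 and 0.14, and Ctla4 0.29 and 0.04, the last with an interval of -0.07 to 0.15. Of all genes 3.07% were higher in CD4 cells by 1.5-fold in cecum and 5.05% in tumor, and 5.51% and 4.82% were lower. The count within 1 kb of either gene end turned the tumor ratio of Cd28 to -0.04 and the ratios of Ctla4 to -0.11 in cecum and -0.34 in tumor.

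**Figure D2:**
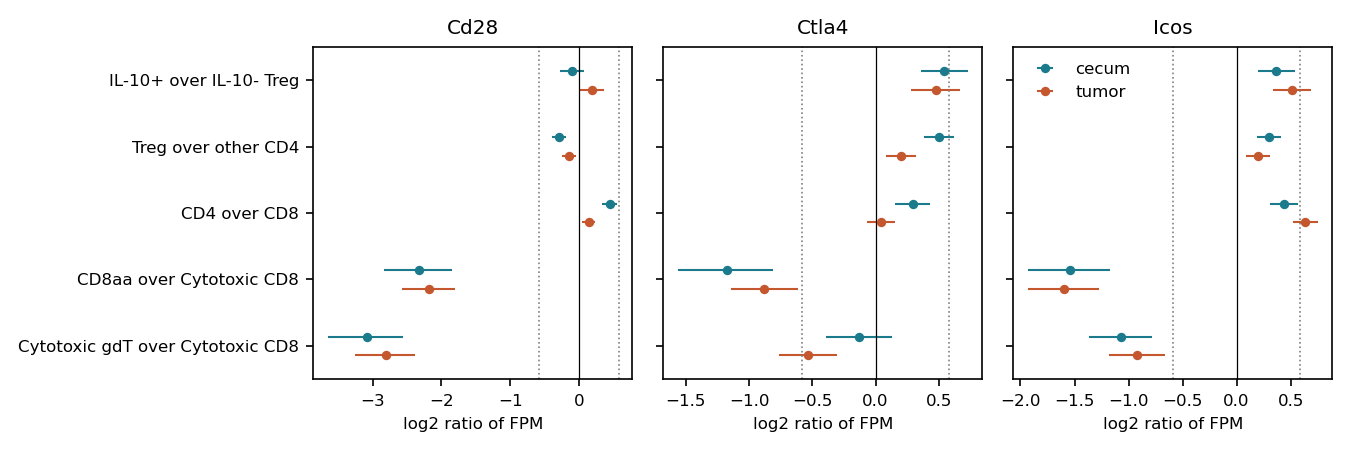
Log2 ratios of FPM (x axis) for each comparison (y axis) and gene, in both libraries, with exact 95% counting intervals. The solid line marks no difference and the dotted lines 1.5-fold. Cd28 lies 8.47-fold and 6.99-fold lower in Cytotoxic gdT than in Cytotoxic CD8 cells.

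Large differences lay at Cd28 between some of the labels. The label pairs of this paragraph were chosen after the values were seen, so their ratios are descriptions. CD8aa cells had 5.01-fold less Cd28 accessibility than Cytotoxic CD8 cells in cecum and 4.51-fold less in tumor, at percentiles 0.117 and 0.182 of all genes. Ctla4 was 2.26-fold and 1.84-fold lower and Icos 2.91-fold and 3.02-fold lower in the same pair, where 5.62% and 4.76% of all genes were lower by 1.5-fold. Cytotoxic gdT cells had 8.47-fold and 6.99-fold less Cd28 accessibility than Cytotoxic CD8 cells, and the share of genes lower by 1.5-fold was 3.26% and 3.52%. Ctla4 differed less in this pair, with a log2 ratio of -0.13 in cecum (-0.39 to 0.13) and -0.53 in tumor (-0.77 to -0.30). Icos was 2.10-fold and 1.90-fold lower, at percentiles 0.818 and 1.31 of all genes. Rorgt gdT cells had 3.13-fold and 3.05-fold less Cd28 accessibility than Th17 cells, the CD4 cells that share their lineage factor. The log2 intervals were -1.99 to -1.31 and -1.93 to -1.30, and 6.47% and 4.30% of all genes were lower by 1.5-fold in this pair. Within CD8 cells, PD1+ CD8 had 1.74-fold and 1.72-fold more Cd28 accessibility than Cytotoxic CD8 (lower bounds of the log2 intervals 0.60 and 0.61), where 4.87% and 5.94% of all genes were higher by 1.5-fold. In that pair Ctla4 did not differ beyond counting error, with log2 ratios of 0.16 (-0.07 to 0.40) and 0.02 (-0.15 to 0.21). Icos had ratios of -0.11 (-0.33 to 0.11) and -0.36 (-0.55 to -0.16) there. Against CCR7+ CD8 cells instead, PD1+ CD8 cells had 1.46-fold and 2.08-fold more Ctla4 accessibility (log2 intervals 0.18 to 0.91 and 0.61 to 1.55). Between those labels 9.28% of all genes were higher by 1.5-fold in cecum and 12.2% in tumor, and Ctla4 lay at percentiles 89.8 and 94.7.

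Tumor and cecum differed little at the genes themselves. Over 3 genes and 16 labels, 0 of 48 tumor over cecum ratios passed 1.5-fold, where 5.38% of all gene and label pairs did. The median log2 ratios were -0.09 for Cd28, -0.12 for Ctla4 and -0.11 for Icos, and 10, 9 and 11 of the 16 labels were lower in the tumor. Counting intervals excluded no difference in 8 of the 48 cases, and the share of all gene and label pairs with such intervals was not counted. Ctla4 was lower in the tumor in Th17 (-0.53), IL-10+ Treg (-0.24) and Innate-like T#1 cells (-0.23) and higher in CD8aa cells (0.53). Icos was lower in newly activated CD4 (-0.49) and PD1+ CD8 cells (-0.41), and Cd28 in Tfh-like (-0.38) and IL-10- Treg cells (-0.23). Among all genes tested in the same label, the lower of these ratios lay at percentiles 3.02 to 12.3 and the higher one at 96.8. Within 1 kb of either gene end, 10 of the 48 passed 1.5-fold, and the share of all genes was not counted in that window. Tissue and library cannot be told apart in these ratios.

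The tiles showed where within the cluster the cell types differed. A tile was compared when it had at least 20 fragments over both groups in each library, and called when it passed 1.5-fold in the same direction in both. For IL-10+ over IL-10- Treg cells, 29 of 113 tiles were higher (25.7%) and 4 lower (3.54%), against 5.97% and 7.16% of 74601 tiles across the genome. For Treg over other CD4 cells, 56 of 225 were higher (24.9%) and 7 lower (3.11%), against 6.07% and 8.78% of the genome's tiles. For CD4 over CD8 cells, 52 of 174 were higher (29.9%) and 1 lower (0.575%), against 7.86% and 7.79%. The share higher in the first group was thus above the genome's in all 3 comparisons. After removal of cells with over 3 times the median number of fragments, the last 2 counts of higher tiles were 37 and 28, and the genome's shares were not counted without those cells. Neighbouring tiles share fragments and are not independent. With at least 50 fragments the counts were smaller, 8 of 38, 20 of 93 and 16 of 73, and the shares of 21.1%, 21.5% and 21.9% stood against 3.57%, 4.34% and 5.30% across the genome.

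**Figure D3:**
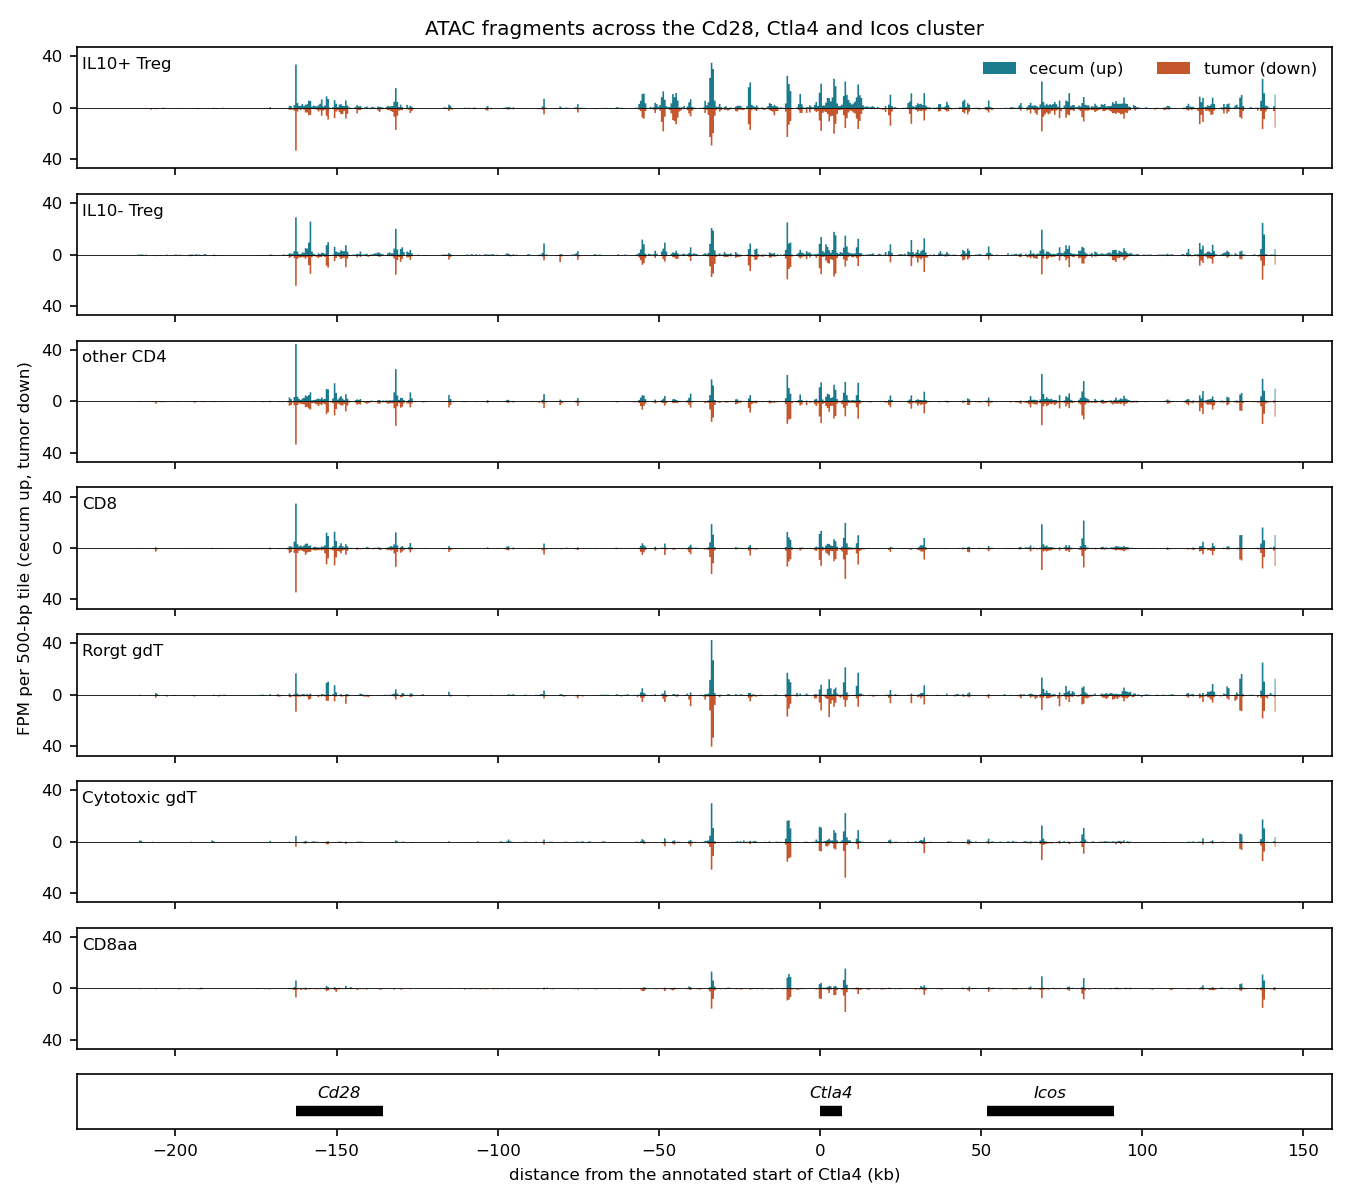
FPM in each 500-bp tile (y axis, cecum upward and tumor downward) against the distance from the annotated start of Ctla4 in kb (x axis), for 7 labels or groups of labels, with the gene spans below. The peak at the lower end of Cd28 is low in Cytotoxic gdT (4.65 and 3.58 FPM) and CD8aa cells, while peaks before Ctla4 remain.

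Most tiles that were higher in Treg cells lay outside the gene windows. Between the Cd28 and Ctla4 windows 12 of 33 tiles were higher in IL-10+ than in IL-10- Treg cells and 3 were lower, and 23 of 57 were higher in Treg than in other CD4 cells. Over this interval as a whole IL-10+ Treg cells had 338 FPM in cecum and 289.6 FPM in tumor, IL-10- Treg cells 214 and 206 FPM, other CD4 cells 163 and 163 FPM, and CD8 cells 110.0 and 129 FPM. Between the Ctla4 and Icos windows IL-10+ Treg cells had 110.3 and 100.4 FPM, IL-10- Treg cells 78.7 and 67.0 FPM, other CD4 cells 40.7 and 43.4 FPM, and CD8 cells 23.7 and 31.0 FPM. In that interval 12 of 21 tiles were higher in Treg than in other CD4 cells. In the Cd28 window, by contrast, 1 of 46 tiles was higher in Treg cells and 4 were lower, the latter near the genome's share of 8.78%. For CD4 over CD8 cells the Icos window held 16 higher tiles of 39 and the Cd28 window 10 of 43.

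A stretch of 3 tiles that lies 45.3 kb before Ctla4, at chr1:60863001-60864500 within the long non-coding RNA gene Gm38137, had its highest level in IL-10+ Treg cells of each library. The rule on the largest ratios named its 3 tiles, which were joined after their values were seen. IL-10+ Treg cells had 26.8 FPM in cecum (22.7 to 31.4), from 153 fragments in 115 of 996 cells, and 26.8 FPM in tumor (21.0 to 33.7), from 73 fragments in 54 of 387 cells. IL-10- Treg cells had 6.33 FPM (3.81 to 9.89) and 5.51 FPM (3.77 to 7.78). The ratio of the subsets was 4.23-fold in cecum and 4.85-fold in tumor, and the level in IL-10+ Treg cells was 15.2 and 19.6 times that of all labels that are not Treg. Th17 cells came next in cecum, at 13.8 FPM from 12 fragments, with an interval of 7.12 to 24.1 that overlaps that of IL-10+ Treg cells, and had 3.42 FPM in tumor. Tfh-like cells had 7.03 FPM in cecum (3.94 to 11.6) and 3.57 FPM in tumor. Between the libraries IL-10+ Treg cells had a log2 ratio of 0.00 here (-0.42 to 0.41).

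A second tile of this kind, at chr1:60921001-60921500, covers an annotated start of the long non-coding RNA gene Gm34649, 5.42 kb after Ctla4. IL-10+ Treg cells had 10.2 FPM in cecum (7.71 to 13.1, 58 fragments in 48 cells) and 9.90 FPM in tumor (6.52 to 14.4, 27 fragments in 20 cells). IL-10- Treg cells had 1.67 and 1.38 FPM, from 5 and 8 fragments. The ratios of the subsets were 6.10-fold and 7.18-fold (log2 intervals 1.30 to 4.28 and 1.67 to 4.19). The tile was named for this ratio, so its size is a description. Against all labels that are not Treg the level in IL-10+ Treg cells was 11.9 and 8.69 times as high.

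**Figure D4:**
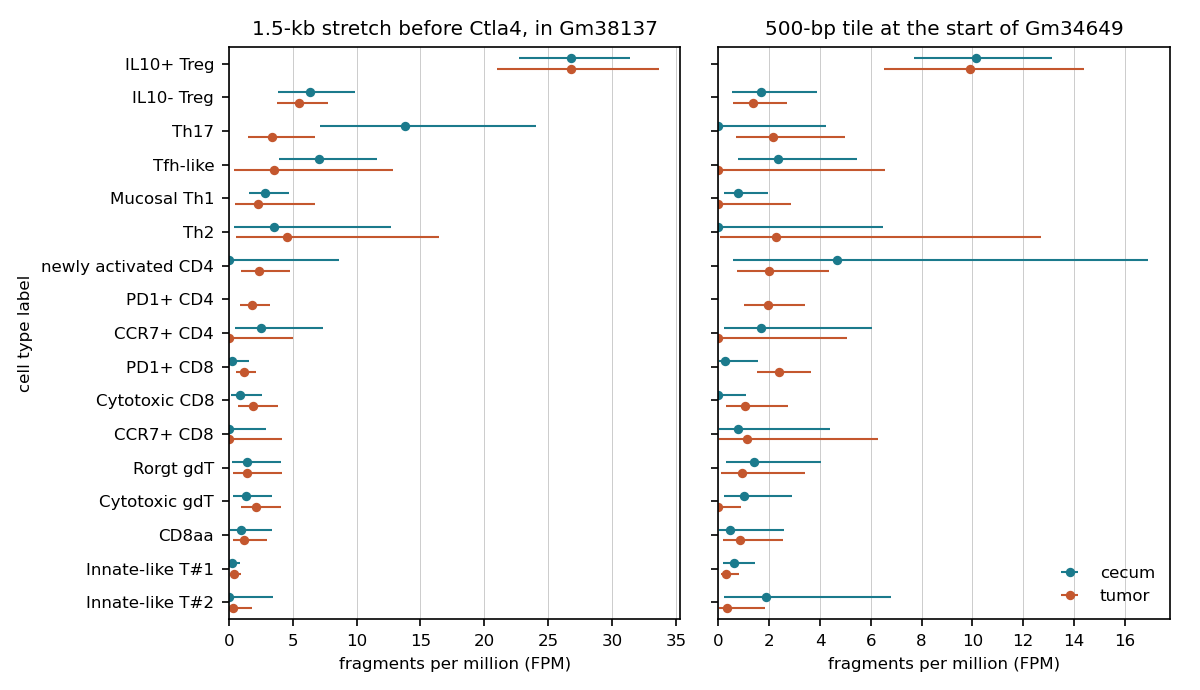
FPM (x axis) in the stretch before Ctla4 and in the tile at the start of Gm34649, for each label (y axis) and library, with exact 95% counting intervals. IL-10+ Treg cells stand at 26.8 FPM in both libraries on the left and at 10.2 and 9.90 FPM on the right, above IL-10- Treg cells in each.

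RefSeq promoter windows, from 250 bases before to 50 bases after an annotated start, overlap both of these places, and they are shown with that of Ctla4 because a promoter that is open in 1 Treg subset can be set beside the promoter of the gene itself. All are on the + strand of GRCm38.p6, at chr1:60908775-60909074 for Ctla4, chr1:60862852-60863151 for an annotated start of Gm38137 and chr1:60920982-60921281 for an annotated start of Gm34649. Capitals mark matches, on either strand, to TGGAAA, the core motif of NFAT factors, and TATAAA, the TATA box.

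Ctla4: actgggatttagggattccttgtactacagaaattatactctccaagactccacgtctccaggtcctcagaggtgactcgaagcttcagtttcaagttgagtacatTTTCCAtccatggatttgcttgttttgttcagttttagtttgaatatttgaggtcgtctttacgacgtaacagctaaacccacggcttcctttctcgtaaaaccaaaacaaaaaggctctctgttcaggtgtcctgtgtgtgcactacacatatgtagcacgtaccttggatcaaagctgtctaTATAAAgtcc
Gm38137: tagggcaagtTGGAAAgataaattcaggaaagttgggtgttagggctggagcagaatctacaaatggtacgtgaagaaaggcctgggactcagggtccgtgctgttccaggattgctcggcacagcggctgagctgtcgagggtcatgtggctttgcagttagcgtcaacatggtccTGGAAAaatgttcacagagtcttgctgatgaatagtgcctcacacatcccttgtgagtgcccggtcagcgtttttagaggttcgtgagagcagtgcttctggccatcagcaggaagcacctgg
Gm34649: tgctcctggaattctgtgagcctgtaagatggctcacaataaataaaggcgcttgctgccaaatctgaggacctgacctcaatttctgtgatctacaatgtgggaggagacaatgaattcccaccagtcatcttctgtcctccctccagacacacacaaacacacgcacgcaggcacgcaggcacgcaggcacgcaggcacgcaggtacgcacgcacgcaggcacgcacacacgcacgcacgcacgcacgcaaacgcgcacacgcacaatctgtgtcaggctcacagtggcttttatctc

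The Ctla4 window holds TGGAAA on the - strand 144 to 139 bases before the start and TATAAA 40 to 45 bases after it. The Gm38137 window holds TGGAAA 240 to 235 and 73 to 68 bases before the start, and the Gm34649 window holds no match. Of 32851 promoters of 300 bases, 21.4% hold TGGAAA and 13.6% hold TATAAA. The other motifs searched were TGANTCA of AP-1, TGTGGT of RUNX, AGGAAGT of ETS and GTAAACA of forkhead factors, present in 7.81%, 16.8%, 9.35% and 3.65% of promoters. A match describes letters and not binding. Over the Ctla4 promoter window itself the Treg subsets had 16.3 FPM (IL-10+) against 11.7 FPM (IL-10-) in cecum and 13.6 against 15.5 FPM in tumor. The log2 ratios of 0.48 (-0.09 to 1.09) and -0.19 (-0.79 to 0.37) both have intervals that include no difference. Th17 cells had 29.9 and 14.5 FPM there and Tfh-like cells 16.9 and 28.5 FPM. Over the Gm38137 promoter window IL-10+ Treg cells had 8.06 and 5.50 FPM and IL-10- Treg cells 1.33 and 0.517 FPM, and over that of Gm34649 they had 7.88 and 10.3 FPM against 1.67 and 1.21 FPM.

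Other tiles in front of Ctla4 were shared with other cells to different degrees. The tile at 60859501, 49.3 kb before Ctla4, had 8.58 and 10.6 FPM in the IL-10+ subset, against 2.67 and 0.861 FPM in the IL-10- one. The tile at 60875001, 33.8 kb before Ctla4 in Gm38137, had the second most fragments of the cluster (2082) and a different order. Rorgt gdT cells were highest there at 43.0 FPM in cecum and 39.99 FPM in tumor, followed by IL-10+ Treg cells at 35.4 and 29.0 FPM in the cecum and the tumor. Cytotoxic gdT cells had 30.3 and 21.5 FPM, IL-10- Treg cells 21.0 and 17.1 FPM, and CCR7+ CD4 cells 2.52 and 1.37 FPM. The tile at 60898501, 10.3 kb before Ctla4, was equal in the Treg subsets of the cecum at 25.2 and 25.3 FPM, with 22.4 and 18.95 FPM in the tumor. At the annotated start of Ctla4 (tile 60909001) the log2 ratio of the subsets was 0.45 in cecum (-0.08 to 0.998) and 0.23 in tumor (-0.31 to 0.76), so no difference was detectable at this depth.

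Behind Ctla4 the tile at 60916501, 0.918 kb past the gene, was highest in Cytotoxic gdT cells in both libraries, with intervals that overlap those of other labels. They had 22.6 FPM in cecum (17.55 to 28.7) and 27.7 FPM in tumor (22.9 to 33.2). PD1+ CD8 cells had 21.65 FPM (17.1 to 27.0) and 24.7 FPM (21.6 to 28.1), and IL-10+ Treg cells 20.8 and 15.4 FPM. This tile held 30.6% and 42.3% of all fragments of Cytotoxic gdT cells in the Ctla4 window, and CD8aa cells placed 44.2% and 34.8% of theirs in it. In IL-10+ Treg cells the same tile held 13.1% and 11.4%. It was lower in CD4 than in CD8 cells, with log2 ratios of -0.37 and -1.06. Farther on, within Gm34649, the tile at 60930501 had 10.5 and 13.6 FPM in IL-10+ Treg cells. It had 8.33 and 5.68 FPM in IL-10- Treg cells and 6.10 and 10.7 FPM in Tfh-like cells. The tile at 60937001 had 11.6 and 12.1 FPM in the IL-10+ subset and 11.7 and 8.61 FPM in the IL-10- one. Tfh-like cells were level with them there, at 11.25 and 12.5 FPM. This tile was higher in CD4 than in CD8 cells, 20.7-fold in cecum from 53 against 2 fragments (log2 interval 2.45 to 7.46) and 5.70-fold in tumor. The tile at 60953501, 37.9 kb past Ctla4, was 7.12-fold and 7.77-fold higher in Treg than in other CD4 cells.

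At Cd28 the tile at the lower end of the span (60746001) had the most fragments of the whole cluster, 2993. It reached 55.1 FPM in Th17 cells of the cecum and 45.4 FPM in newly activated CD4 cells of the tumor, and had 4.65 and 3.58 FPM in Cytotoxic gdT cells and 6.50 and 6.65 FPM in CD8aa cells. The tile at 60777001, 3.89 kb past the gene, had 32.4 FPM in Tfh-like cells of the cecum and 27.4 FPM in CCR7+ CD4 cells of the tumor. CD8aa cells had 0 fragments there in both libraries, which, taken as 3 counts, allows up to 1.39 FPM in cecum and 0.867 FPM in tumor, and Cytotoxic gdT cells had 4 and 0 fragments. Within the gene a pair of tiles passed 1.5-fold between the Treg subsets in both libraries, and both are named after their values were seen. The tile at 60750501 was lower in IL-10+ Treg cells by log2 ratios of -2.21 (32 against 78 fragments) and -1.51 (14 against 85), and the tile at 60754001 was higher by 2.04 (39 against 5) and 1.92 (16 against 9). They were 1 tile in each direction among the 17 compared in the Cd28 window, a count near the genome's shares of 5.97% and 7.16%.

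At Icos the strongest tiles lay inside the annotated span. The tile at 60977501, 17.0 kb from its lower end, was open in every ranked label, from 9.17 to 29.9 FPM in cecum and from 7.23 to 29.6 FPM in tumor. The tile at 60990501, 30.0 kb from that end, had 28.0 and 22.6 FPM in Cytotoxic CD8 cells. It was lower in Treg than in other CD4 cells by log2 ratios of -1.07 and -0.81, against the direction of the whole window. Between the Treg subsets its ratios were 0.63 (-0.19 to 1.52) and 0.61 (-0.14 to 1.35), past 1.5-fold but not beyond counting error. The tile at 60981501, also named after its values were seen, was higher in IL-10+ Treg cells by 2.88 and 1.90.

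**Figure D5:**
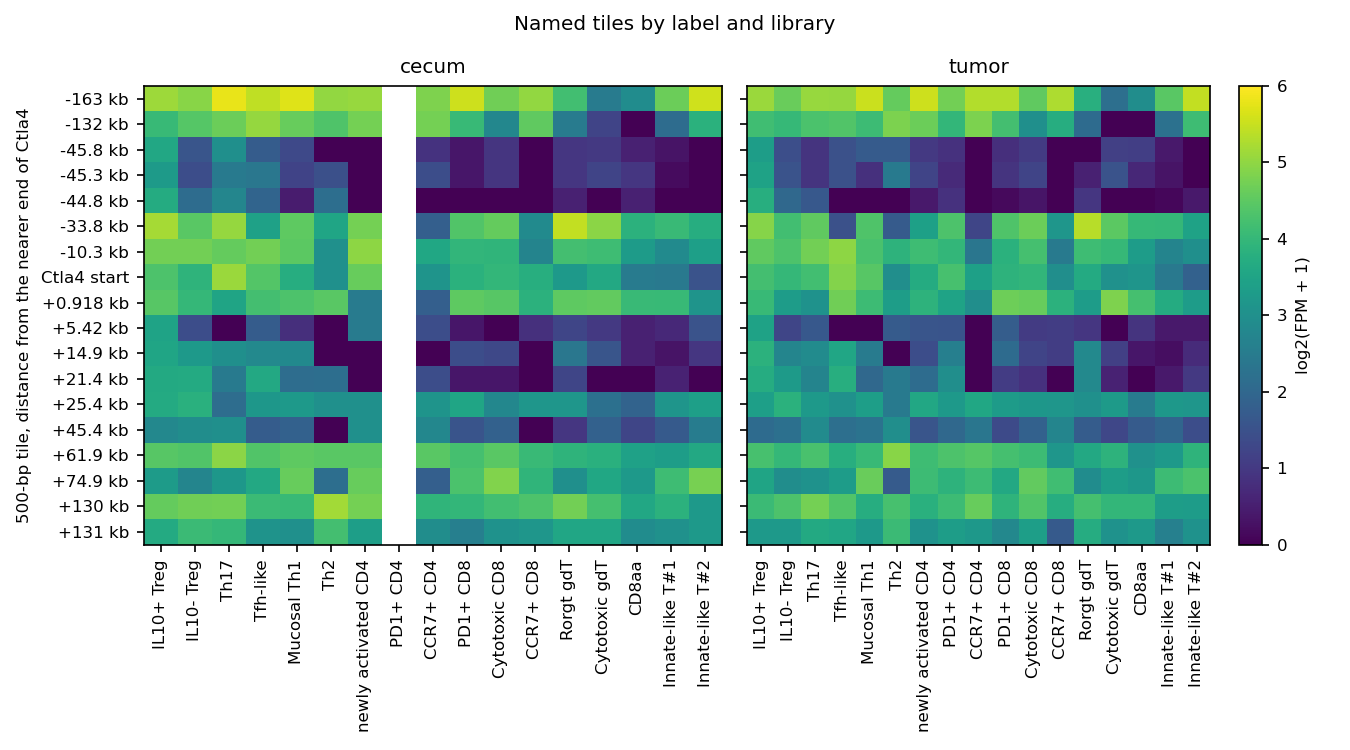
Accessibility as log2(FPM + 1) (color) of 18 of the 25 named tiles, those with at least 150 fragments (y axis, distance from the nearer end of Ctla4 in kb), in each label (x axis) and library; PD1+ CD4 of the cecum is left blank. The 3 tiles from -45.8 to -44.8 kb are brightest in IL-10+ Treg cells of each library.

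Few tiles moved with the tissue in both Treg labels. The share lower in the tumor was above the genome's but rests on 5 tiles. Of 98 tiles, 2 were higher in the tumor by 1.5-fold in both labels (2.04%) and 5 lower (5.10%), against 2.67% and 1.97% of the tiles of the genome. The lower ones were at 60823001, 60853501, 60916001, 60961001 and 61023001, and the higher ones at 60976001 in Icos and at 61030001. At 60976001 the log2 ratio was 1.70 in IL-10+ Treg cells (0.39 to 3.09, 14 against 9 fragments). In IL-10- Treg cells it was 1.55 (17 against 3 fragments), where the interval of -0.24 to 3.96 includes no difference. With at least 50 fragments 0 of 38 tiles were higher and 2 lower (5.26%), against 0.87% and 0.742% across the genome.

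For each gene the 3 genes with the most similar pattern were found by Pearson r of log2(FPM + 1) over 33 label and library profiles, among 15255 genes. Cd28 was followed most closely by Cd5 (r = 0.925), a restraining receptor of T cells, Raph1 (0.921), which lies 179 kb before Cd28 on the same chromosome, and Cd2 (0.895), a T cell adhesion receptor. Ctla4 was most like Mpp2 (0.895), Sdcbp2 (0.877) and Arhgap31 (0.862). Icos was most like Galm (0.929), Smco4 (0.903) and Wwox (0.884). The neighbours were less alike than these, with 0.373 for Cd28 and Ctla4, 0.742 for Cd28 and Icos and 0.778 for Ctla4 and Icos. Among the 15255 genes Icos still ranked 52 for Cd28 and 55 for Ctla4, and Ctla4 ranked 42 and Cd28 73 for Icos. Ctla4 ranked 1315 for Cd28, and Cd28 ranked 1702 for Ctla4. The profiles share 2 libraries and differ in depth.

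The other genes of the pathway were described by a list of 5 ligands, 18 signalling genes, 5 genes of CTLA-4 trafficking and 15 other costimulatory and inhibitory receptors. Between the Treg subsets 0 of 5 ligands and 0 of 18 signalling genes passed 1.5-fold in either library. In both libraries at once, 0.937% of all genes were higher and 4.79% lower by that much. Trat1, which encodes a T cell receptor adaptor that also binds CTLA-4, was lower in IL-10+ Treg cells by log2 ratios of -1.69 and -2.13. Among the receptors 1 of 15 was lower in both libraries, the inhibitory receptor gene Btla (-1.05 and -0.68), and Cd40lg was higher in the tumor (0.67). In Treg over other CD4 cells the gene of the CD40 ligand, Cd40lg, was lower (-1.10 and -1.17), as were Btla (-0.71 and -0.59) and Trat1 (-1.37 and -0.90). Of the 15 receptors 2 were lower in both libraries, where 2.35% of all genes were lower in both and 1.70% higher. Cd86 (0.60), Havcr2 (0.92) and Tigit (0.67) were higher by 1.5-fold in the cecum alone, and Pik3cd, which encodes a PI3K catalytic subunit, was lower in the tumor alone (-0.65). In CD4 over CD8 cells 3 of 15 receptors were higher in both libraries, Btla (0.81 and 1.14), Cd40lg (1.32 and 1.93) and Tnfrsf4, the gene of OX40 (1.15 and 1.44), where 1.61% of all genes were higher in both and 2.25% lower. Nfkb1 (0.58 and 0.66) and Trat1 (0.46 and 0.84) passed 1.5-fold in the tumor alone. The median log2 ratios of the lists stayed between -0.31 and 0.20, beside medians of -0.04 to 0.01 over all genes.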

How the data were processed

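Sorted mouse T cells were profiled by multiome sequencing, with 1 ATAC library each from tumor and cecum. The ATAC fragment lists came from Cell Ranger ARC 2.0.0 on mm10, per the file headers, and the deposited values are raw counts of read pairs per fragment and barcode, with duplicates collapsed. The authors' labels came from clustering the RNA of the same nuclei. The RNA was not analysed here, and doublets were not called. In all, 15621 cells carried a label (66.2% of cecum and 64.3% of tumor fragments).

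Each fragment was counted once per window if an end lay in it, summed by label and library, and scaled per 1000000 counted fragments. Gene spans came from RefSeq (GRCm38.p6), with 5 kb on each side. Ratios used counts with exact conditional 95% intervals, and a gene needed 50 fragments and a tile 20. A count of 0 was given a floor of 3 counts. Past 1.5-fold was the call, with no test, since each tissue had 1 library. Labels under 50 cells were not ranked. Named were the 3 genes, the 2 tiles with most fragments per segment, and the 3 tiles with the largest ratio of the same sign per comparison. The 3 most similar genes needed 500 fragments and a pseudocount of 1 FPM was used. Some items of the design and lists are not reported here. The members, lists, tests and alternatives were chosen with earlier results of these data known.

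Tried as alternatives were a minimum of 1000 fragments per cell, removal of cells above 3 times the median, both ends counted, the mean over cells, other windows, scaling by the fragments around gene ends, tiles shifted by 250 bp, higher minimums and a fold of 2. Tools were Python 3.11.15 with numba 0.67.0, scipy 1.17.1, matplotlib 3.10.9, pandas 2.3.3, pyarrow 21.0.0 and numpy 2.4.6. The counter was tested on simulated fragments. For IL-10+ over IL-10- Treg cells, Poisson counts were simulated, with a log2 ratio of 1 for 200 genes. These gave a median of 1.01 in the cecum (14552 genes) and 0.99 in the tumor (14794 genes), and 95.7% and 95.8% of intervals held the true value. The intervals assume such counts, so this checks the calculation and not the spread of real fragments.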

Additional observations from a re-analysis of the deposited data

Results flagged for a closer look

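Cd28 moved in opposite directions between the libraries. Between the Treg subsets, IL-10+ over IL-10-, its log2 ratio was -0.10 in cecum and 0.19 in tumor, the former with an interval that includes no difference. Seen the other way, its tumor over cecum ratio was 0.0602 in IL-10+ Treg and -0.23 in IL-10- Treg cells. The difference between these ratios was not tested, and each rests on 1 library. Counted within 1 kb of either gene end, the ratio of the subsets was positive in both libraries, at 0.27 and 0.45.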

How the results depend on the processing

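Most ratios of the 3 genes moved little, and the window mattered most. Within 1 kb of either gene end, 3 ratios whose interval had excluded no difference changed sign, Treg over other CD4 for Ctla4 in the tumor (-0.019), CD4 over CD8 for Cd28 in the tumor (-0.0352) and for Ctla4 in the cecum (-0.11). So did 2 whose interval had included it, Cd28 between the Treg subsets in cecum and Ctla4 for CD4 over CD8 in tumor. In the same window IL-10+ over IL-10- Treg was 0.27 and 0.45 for Cd28 and 0.18 for Icos in the tumor, Treg over other CD4 was -0.47 and -0.31 for Cd28, 0.24 for Ctla4 in the cecum and 0.96 and 0.73 for Icos, and CD4 over CD8 was -0.34 for Ctla4 and 0.81 for Icos in the tumor. There 1 of the 6 gene and library cases was led by IL-10+ Treg cells, against 4 of 6 over the full window. Over the gene span alone IL-10+ over IL-10- Treg was 0.34 for Ctla4 in the cecum, Treg over other CD4 was -0.13 for Cd28 in the cecum and 0.0844 for Icos in the tumor, and CD4 over CD8 was 0.34 for Cd28 in the cecum and 0.57 and 0.30 for Ctla4. With 25 kb on each side Treg over other CD4 was 0.77 and 0.35 for Ctla4 and 0.50 and 0.32 for Icos, and CD4 over CD8 was 0.48 and 0.29 for Ctla4. After removal of cells above 3 times the median the tumor ratio of the Treg subsets for Ctla4 was 0.67. As the mean over cells it was 0.34 for Icos in the tumor, and CD4 over CD8 for Icos in the cecum was 0.25. The tumor over cecum cases past 1.5-fold, 0 in the main count, were 2 over the span alone, 10 within 1 kb of a gene end, 2 without cells of high count and 1 as the mean over cells.

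For tiles, leaving out cells of high count gave 2 lower for the Treg subsets, 37 higher for Treg over other CD4, 28 higher and 0 lower for CD4 over CD8, and 1 higher for tumor over cecum. Shifted tiles gave 0 lower for CD4 over CD8. With at least 50 fragments the tiles were 8 higher and 1 lower for the Treg subsets, 20 higher for Treg over other CD4, and 16 higher and 0 lower for CD4 over CD8. For tumor over cecum they were 0 higher and 2 lower of 38 (5.26% lower, against 0.742% of the genome's tiles). Fewer tiles were compared than in the main count. The median share of all genes past the fold, 4.82%, was 2.29% with at least 200 fragments and 1.44% at a fold of 2. Why the other values moved was not tested. No paired analysis was possible because each tissue had 1 library, and no replicate could be left out. Labels with under 100 cells and tiles with few fragments have wide intervals, which limits what they can show.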

Other observations

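Of the named tiles, 1 in the interval between Cd28 and Ctla4 had its highest levels in the tumor library in IL-10- Treg and PD1+ CD4 cells. The tile at chr1:60828001-60828500, in no annotated gene and 54.9 kb past Cd28, was named for its CD4 over CD8 ratio (7.04-fold in cecum from 18 against 2 fragments, log2 interval 0.75 to 5.97, and 7.42-fold in tumor). Its pattern over the Treg labels was seen afterwards. IL-10- Treg cells had 5.51 FPM in the tumor, from 32 fragments in 26 of 737 cells, and 0.667 FPM in the cecum, from 2 fragments in 424 cells. The log2 ratio of tumor over cecum was 3.05, with a wide interval of 1.08 to 6.15. PD1+ CD4 cells of the tumor had 4.56 FPM, from 28 fragments in 24 of 616 cells. In the cecum that label had 1 fragment in 14 cells, too few for a comparison of the tissues. Other cecum labels overlapped these levels, with 2.81 FPM in Tfh-like (1.03 to 6.12, 6 fragments) and 3.52 FPM in Th2 cells (0.43 to 12.7, 2 fragments). IL-10+ Treg cells had 8 fragments in 996 cells of the cecum and 1 fragment in 387 cells of the tumor, a log2 ratio of -1.93 whose interval of -7.41 to 0.96 includes no difference.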
